A study of Homo sapiens with 4 samples.

Results

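The expression of 10 transcription factor genes of the blood lineage was compared between control (NC) and IRF1 knockdown (sh-IRF1) libraries of MV4-11 cells, a human acute myeloid leukemia (AML) cell line. The genes were the 3 RUNX genes RUNX1, RUNX2 and RUNX3 with their partner subunit CBFB, the MEF2 genes MEF2A and MEF2D, and MYB, GFI1, LMO2 and ZEB2. They were chosen by symbol from the 23622 genes of the deposited table. All 10 were found and all 10 passed the filter on low values, among 14120 genes that passed. Total RNA was sequenced from 2 NC and 2 sh-IRF1 libraries. All 4 libraries came from MV4-11 cells that the labels give as genotype WT. The NC libraries carry no treatment in the labels and are called sh-NC by the study, while the sh-IRF1 libraries are labelled as IRF1 knockdown. The hairpins were delivered in the pLKO.1 vector by lentivirus and infected cells were selected with puromycin. The labels give neither the hairpin that each sh-IRF1 library carried nor whether the libraries came from separate cultures, so the p-values measure only the spread between these libraries, which may be technical.

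RUNX proteins bind DNA through the runt domain and do so most stably together with the CBFB subunit, which does not itself contact DNA. They switch genes on or off depending on the cofactors they recruit, and RUNX1 is required for the formation of blood stem cells. MEF2 proteins bind AT-rich elements as dimers and are held inactive by class II histone deacetylases until calcium or kinase signals release them. MYB keeps progenitor cells in an immature, dividing state, LMO2 bridges DNA-binding proteins in a multi-protein complex, and GFI1 and ZEB2 are zinc finger repressors that recruit histone-modifying enzymes. The study placed RUNX2 and MEF2D in one regulatory circuit with IRF1, ELF1 and ETV6 in AML cells. It also reported, for the cell line used here, that knockdown of any circuit member lowered the others in mRNA and protein. That report rests on a heatmap of mRNA levels and on western blots after each knockdown. The assay behind the heatmap and the IRF1 mRNA left there are not given in the study's text, so only directions are compared below. The comparison asked how the messages of these factors stood when IRF1 was lowered.

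The study listed 2 hairpin targets in IRF1 (ENSG00000125347), which are shown because they define the perturbation. Both are 21 bases long, lie in the coding sequence on the minus strand of chromosome 5 and matched that chromosome of GRCh38 at 1 place. The target of sh-IRF1#1 is in exon 7 of the canonical transcript (chr5:132486284-132486304) and that of sh-IRF1#2 is in exon 8 (chr5:132485672-132485692).
sh-IRF1#1: gcaccagtgatctgtacaact
sh-IRF1#2: ggaaattacctgaggacatca
The longest run of bases that a target shared with a transcript of the 10 genes was 9 for sh-IRF1#1, with RUNX3, and 10 for sh-IRF1#2, with RUNX1.

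RefSeq promoter windows, from 250 bases before to 50 bases after a transcript start on GRCh38.p14, were found for 8 of the 10 genes, 14 windows in all. CBFB and LMO2 had no entry. The windows were searched on both strands for the motifs of the factors themselves and of IRF1. The RUNX motif TGTGGT was found in 3 of the 14 windows, the first windows of RUNX2 and RUNX3 and the second of GFI1, and in 13.1% of all 35116 windows. The first 280 bases of the first RUNX2 and RUNX3 windows are printed 5′ to 3′ because they carry the motif of their own family. The RUNX motif, here on the opposite strand, is in capitals. In the RUNX3 window the capitals near its 5′ end mark the E-box CACCTG, a motif bound by ZEB2, which was found in 20.6% of all windows.
RUNX2, chr6:45328080-45328359, plus strand: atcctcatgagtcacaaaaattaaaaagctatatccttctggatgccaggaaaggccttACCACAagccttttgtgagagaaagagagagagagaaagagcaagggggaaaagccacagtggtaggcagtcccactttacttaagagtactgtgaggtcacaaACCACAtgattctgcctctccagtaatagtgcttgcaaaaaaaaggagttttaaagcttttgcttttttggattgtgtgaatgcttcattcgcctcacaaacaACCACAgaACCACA
RUNX3, chr1:24964981-24965260, minus strand: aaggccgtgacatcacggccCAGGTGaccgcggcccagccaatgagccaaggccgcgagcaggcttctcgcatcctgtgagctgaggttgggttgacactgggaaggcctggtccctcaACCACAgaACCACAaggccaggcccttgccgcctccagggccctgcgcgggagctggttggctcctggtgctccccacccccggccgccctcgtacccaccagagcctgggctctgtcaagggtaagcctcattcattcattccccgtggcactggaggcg
Each holds 2 RUNX motifs separated by a pair of bases, ACCACAgaACCACA. These 14 letters, searched on both strands after the windows had been seen, were found in 3 of all 35116 windows. The 1 RUNX1 window (chr21:34888650-34888949) held no RUNX motif, and neither did the second windows of RUNX2 and RUNX3. The RUNX1 window lies inside the gene (chr21:34787801-36004667), while the first windows of RUNX2 and RUNX3 lie at the 5′ ends of theirs. No window at the 5′ end of RUNX1 was among those searched, so the RUNX genes are not compared at like promoters.

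The second MEF2A window and the ZEB2 window are printed because they hold the only match among the 14 windows to the MEF2 motif and to the IRF motif. The MEF2 motif CTANNNNTA matched the MEF2A window on both strands at overlapping places, which are in capitals together, and it was found in 16.4% of all windows. The IRF motif GAAANNGAA matched the ZEB2 window 85 bases before the start and was found in 8.11% of all windows. The capitals at the end of the ZEB2 window mark the MYB motif TAACNG, found in 20.8% of all windows.
MEF2A, chr15:99565734-99566013, plus strand: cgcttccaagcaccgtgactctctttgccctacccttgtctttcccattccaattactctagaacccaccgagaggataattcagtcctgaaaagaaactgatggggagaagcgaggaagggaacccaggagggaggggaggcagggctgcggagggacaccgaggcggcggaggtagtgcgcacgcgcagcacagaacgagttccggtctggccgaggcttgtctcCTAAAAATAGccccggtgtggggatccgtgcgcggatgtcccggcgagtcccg
ZEB2, chr2:144520090-144520369, minus strand: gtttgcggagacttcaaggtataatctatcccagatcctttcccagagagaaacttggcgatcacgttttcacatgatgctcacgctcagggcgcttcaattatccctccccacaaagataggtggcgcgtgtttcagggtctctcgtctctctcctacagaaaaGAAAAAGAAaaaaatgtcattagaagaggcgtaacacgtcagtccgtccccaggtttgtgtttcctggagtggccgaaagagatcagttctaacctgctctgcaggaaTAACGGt
The GFI1 motif AATCAC was found in the RUNX1 window alone among the 14, and in 10.2% of all windows. A match is a description of the letters and not a site of binding.

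The libraries held between 17635908 and 18695337 reads, and each of the 10 genes was covered by between 812 and 12239 reads in a library. Values are normalized read counts, reads divided by the size factor of the library. IRF1 had 784.7 and 738.5 in NC and 429.7 and 431.9 in sh-IRF1, so 56.6% of the NC level was left (log2 fold change -0.82, adjusted p = 1.69e-10 by limma). Of its exonic bases, 22.9% are shared with genes on the other strand, and the use of strand in counting is not given in the sources used here. The other circuit factors outside the 10 genes moved in different directions, ETV6 higher (log2 fold change 0.25) and ELF1 lower (log2 fold change -0.14). The study reported lower mRNA of both after IRF1 knockdown, so ELF1 moved in the reported direction and ETV6 did not. The cause was not tested. The summed normalized count of 10 myeloid markers was 29460 and 29230 in NC and 26897 and 26831 in sh-IRF1, lower in both sh-IRF1 libraries. Of these markers 4 were lower and 4 higher. FLT3, which makes up most of the sum in NC, fell (17401 to 12690), as did CD14 (40.0 to 6.41), while LYZ (1804 to 3247) and ITGAM (142 to 219) rose. CD14 rested on 11 and 2 reads in sh-IRF1, and LYZ shares 34.7% of its exonic bases with a gene on the other strand. The sum of the 3 B cell markers with a value was 88.2 and 120 in NC and 254 and 305 in sh-IRF1. CD79A made up most of this difference, with a log2 fold change of 2.20. The T cell marker CD3G stayed at or below 2.81. The 2 megakaryocyte markers with a value summed to 69.8 and 86.3 in NC and 40.8 and 32.8 in sh-IRF1, and the erythroid factor KLF1 went from 28.2 to 11.1. The sums of these B cell, erythroid and megakaryocyte markers stayed at or below 305, and the part of these and of the myeloid markers in the results was not tested. In bulk libraries, fewer cells of a type and less RNA per cell cannot be told apart.

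Of the 10 factors, 6 were lower in sh-IRF1 (MEF2A, LMO2, ZEB2, CBFB, RUNX3 and GFI1), 1 was higher (MEF2D) and 3 did not pass the test (RUNX1, RUNX2 and MYB). Fold changes are on the log2(normalized count + 1) scale, from limma, with a call at an adjusted p under 0.05 over all genes tested. Among all 14120 genes, 42.2% were called, 21.9% lower and 20.3% higher. The factors were more abundant than most genes, and among the 4227 genes with a mean of at least 1000 normalized counts, which include all 10, 66.7% were called and 38.6% were called lower. The count of 7 called among 10 was thus near the background at their level. The 6 of 10 called lower stand beside 38.6% at that level, and this difference was not tested. Their median lay at a log2 fold change of -0.22, against -0.041 for the genes with a mean of at least 1000 and -0.0019 for all genes tested. The 2 NC values and the 2 sh-IRF1 values did not overlap for 7 of the 10 genes, which was near the 69.2% of all genes for which they did not. At a log2 fold change below -0.5, MEF2A alone was called, 1 of 10 against 7.56% of all genes.

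**Figure D1:**
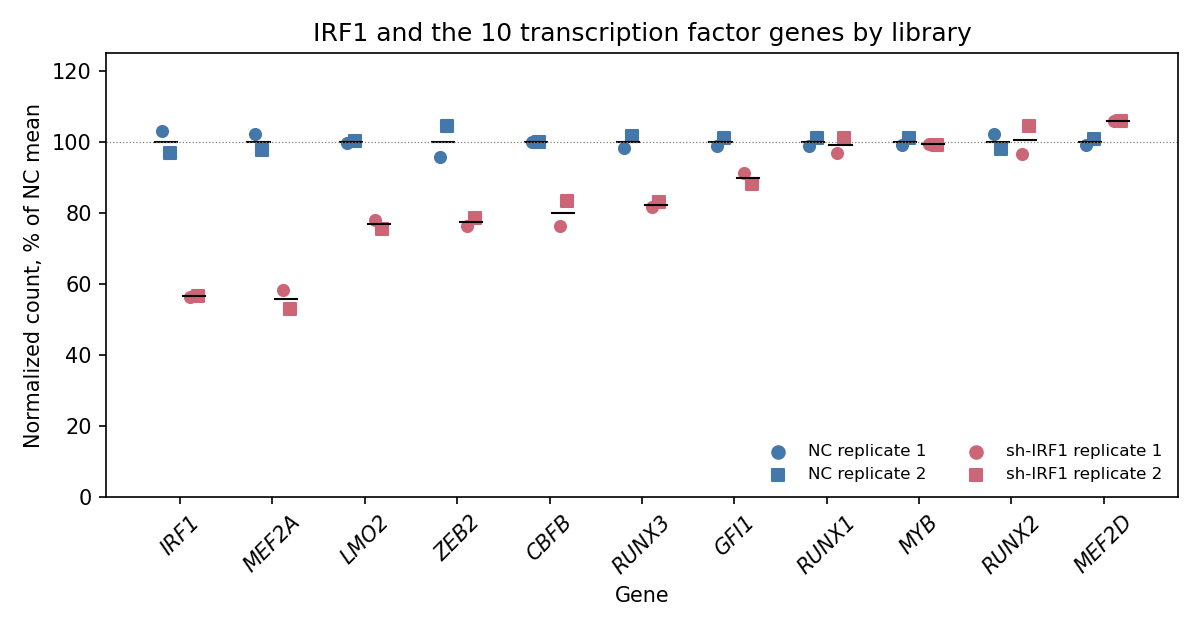
Normalized count of IRF1 and the 10 factors in each library as a percentage of the gene's NC mean (y axis), by gene (x axis). Circles are replicate 1, squares are replicate 2, and lines are group means (n = 2). The sh-IRF1 means of IRF1 and MEF2A sit near 56% of NC, with the 2 libraries of MEF2A on either side. LMO2 to GFI1 lie between them and the control level, and RUNX1, MYB and RUNX2 at the control level.

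Within the RUNX family, RUNX3 was lower and RUNX1 and RUNX2 did not pass the test. RUNX3 (ENSG00000020633, chr1:24899511-24965121, minus strand), which is prominent in T cells and myeloid cells, had 3807.7 and 3939.0 in NC and 3164.2 and 3214.7 in sh-IRF1. Both sh-IRF1 libraries were below both NC libraries, and RUNX3 fell by 0.28 on the log2 scale (SE 0.041, adjusted p = 2.00e-07). RUNX1 (ENSG00000159216, chr21:34787801-36004667, minus strand), the family member most often altered in leukemia, had 8911.1 and 9106.4 in NC and 8736.5 and 9110.2 in sh-IRF1. The 2 groups overlapped, and the difference of -0.014 had a 95% interval from -0.077 to 0.049 (adjusted p = 0.756). RUNX2 (ENSG00000124813, chr6:45328157-45664349, plus strand), best known as the regulator of bone formation, had 1895.7 and 1818.0 in NC and 1795.4 and 1939.5 in sh-IRF1. Its groups also overlapped, and the difference of 0.0075 had a 95% interval from -0.101 to 0.116 (adjusted p = 0.929). Changes of RUNX1 or RUNX2 as large as that of RUNX3 lie outside these intervals. The study reported lower RUNX2 mRNA after IRF1 knockdown, and no such fall was seen in these libraries.

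CBFB (ENSG00000067955, chr16:67028984-67101058, plus strand) had 3310.2 and 3306.3 in NC and 2521.6 and 2762.2 in sh-IRF1. The NC libraries were close together, while the sh-IRF1 libraries differed from each other by more, and both lay below NC. CBFB fell by 0.33 on the log2 scale (SE 0.046, adjusted p = 6.41e-08), and by between 0.26 and 0.39 when each library was left out in turn. Per kilobase of exon, the ratio of CBFB to the sum of the 3 RUNX genes was 0.451 and 0.442 in NC and 0.381 and 0.403 in sh-IRF1. The ratio was lower in both sh-IRF1 libraries (log2 difference -0.19, exact permutation test, two-sided, p = 0.333, which is the smallest that 2 against 2 libraries allow).

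The balance among the RUNX genes was read as each gene's share of the family's summed count per kilobase of merged exon. RUNX3 took 49.1% and 49.8% in NC and 45.2% and 44.3% in sh-IRF1. RUNX1 took 36.3% and 36.4% in NC and 39.4% and 39.7% in sh-IRF1. RUNX2 took 14.7% and 13.8% in NC and 15.4% and 16.1% in sh-IRF1. The share of RUNX3 was thus lower and the shares of RUNX1 and RUNX2 higher in both sh-IRF1 libraries. The RUNX1 to RUNX3 ratio within a library was 0.740 and 0.731 in NC and 0.873 and 0.896 in sh-IRF1, and the RUNX2 to RUNX3 ratio also did not overlap between the groups (log2 differences 0.27 and 0.29, each with an exact permutation p of 0.333). The RUNX1 to RUNX2 ratio overlapped (log2 difference -0.021, exact permutation p = 0.667), and it turned to 0.024 without NC replicate 2 and to 0.0040 without sh-IRF1 replicate 2. Which gene is largest in the family depended on the length used: with the canonical transcript, RUNX1 rather than RUNX3 was the largest.

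The MEF2 genes parted. MEF2A (ENSG00000068305, chr15:99565417-99716488, plus strand) had 1464.8 and 1402.0 in NC and 834.6 and 760.8 in sh-IRF1. Both sh-IRF1 libraries lay far below both NC libraries, at 55.6% of the NC mean, close to the 56.6% of IRF1 itself. MEF2A fell by 0.85 on the log2 scale (SE 0.069, adjusted p = 1.76e-14), by between 0.78 and 0.91 when each library was left out, and 4.51% of all genes fell further. Of its exonic bases, 11.1% are shared with LYSMD4 on the other strand, whose normalized count was 68.8 ± 11.6 in NC and 99.3 ± 29.2 in sh-IRF1 (SD, n = 2; adjusted p = 0.092).

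MEF2D (ENSG00000116604, chr1:156463727-156500779, minus strand), which belonged to the circuit of the study, had 10731.8 and 10909.0 in NC and 11464.0 and 11467.6 in sh-IRF1. Both sh-IRF1 libraries were above both NC libraries by a small margin, and MEF2D rose by 0.084 on the log2 scale (SE 0.029, adjusted p = 0.0169). This direction is opposite to the lower MEF2D mRNA that the study reported after IRF1 knockdown, and the cause was not tested. The call was lost without NC replicate 1 (adjusted p = 0.0661), without sh-IRF1 replicate 1 (0.109) and without sh-IRF1 replicate 2 (0.114), with a difference between 0.072 and 0.095 over all leave-outs. MEF2C, the paralog best known in lymphoid and myeloid progenitors and not one of the 10, went from 3195 ± 134 to 2015 ± 98.1 (SD, n = 2; log2 fold change -0.67, adjusted p = 4.25e-16). MEF2B had at most 12.2 in a library and shares 76.8% of its exonic bases with other genes.

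MEF2D made up most of the MEF2 messages per kilobase of exon. Its share was 78.1% and 78.2% in NC and 85.8% and 86.7% in sh-IRF1. MEF2A took 9.50% and 8.96% in NC and 5.57% and 5.12% in sh-IRF1, and MEF2C took 12.2% and 12.7% in NC and 8.43% and 7.94% in sh-IRF1. The MEF2A to MEF2D ratio was 0.122 and 0.115 in NC and 0.0649 and 0.0591 in sh-IRF1, a log2 difference of -0.93 (exact permutation p = 0.333).

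Among the 3 genes most like MEF2A over the 4 libraries was BCL11A, a repressor of fetal globin genes in red cells that also acts in lymphoid development. Likeness was the root mean square difference of the centred log2 values among 9986 genes with a mean of at least 100, and it was 0.0040 for BCL11A, 0.014 for EBAG9 and 0.020 for EXOSC8, a subunit of the RNA exosome. BCL11A had 903.7 and 867.9 in NC and 518.2 and 472.2 in sh-IRF1. With 4 libraries in 2 groups such a likeness is common, and 160 genes were within 0.1 of MEF2A.

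LMO2 and ZEB2 fell by similar amounts. LMO2 (ENSG00000135363, chr11:33858576-33892076, minus strand), an adaptor first found at chromosome breakpoints of T cell leukemia, had 3939.0 and 3961.6 in NC and 3077.6 and 2987.1 in sh-IRF1. The 2 groups were far apart against their spread, and LMO2 fell by 0.38 on the log2 scale (SE 0.041, adjusted p = 1.10e-10). ZEB2 (ENSG00000169554, chr2:144364364-144521057, minus strand), a repressor known from the epithelial-mesenchymal transition and needed in blood stem cell differentiation, had 7088.2 and 7739.3 in NC and 5658.9 and 5828.9 in sh-IRF1. The NC libraries differed from each other by more than the sh-IRF1 libraries did, without overlap, and ZEB2 fell by 0.37 (SE 0.036, adjusted p = 8.76e-12). Its paralog ZEB1 was close to absent, with 0 in both NC libraries and 2.98 and 0.94 in sh-IRF1, below the filter.

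GFI1 (ENSG00000162676, chr1:92473043-92486925, minus strand), a repressor needed for neutrophil formation, had 5339.2 and 5458.1 in NC and 4929.8 and 4758.9 in sh-IRF1. Both sh-IRF1 libraries were below NC, at 89.7% of the NC mean, the smallest drop among the 6 that were called lower (log2 fold change -0.16, SE 0.037, adjusted p = 4.63e-04). MYB (ENSG00000118513, chr6:135181308-135219173, plus strand) had 5932.2 and 6053.8 in NC and 5956.3 and 5945.1 in sh-IRF1. Both sh-IRF1 values lay between the NC values, and the difference of -0.010 had a 95% interval from -0.080 to 0.060 (adjusted p = 0.840).

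**Figure D2:**
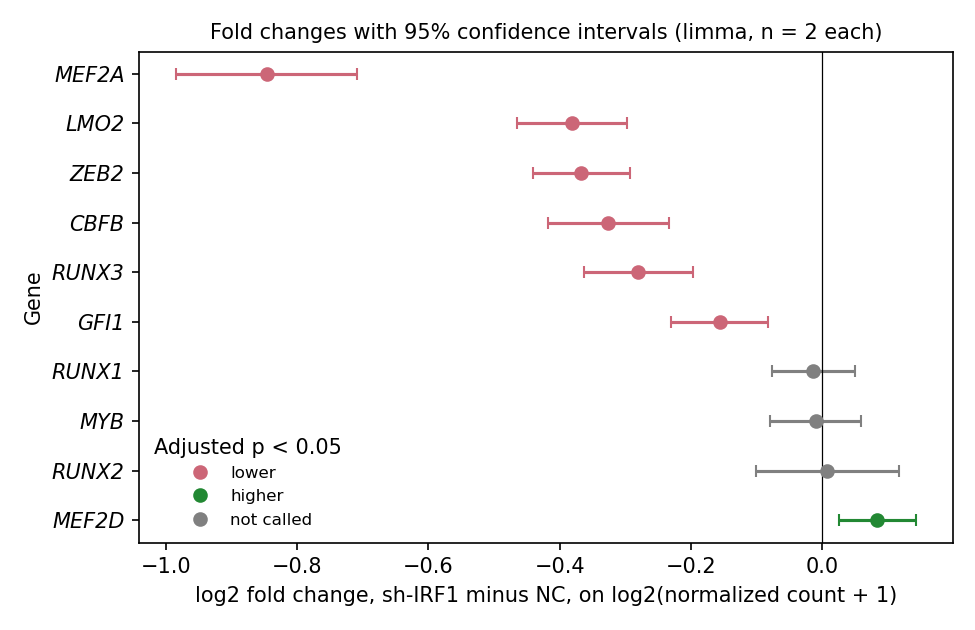
log2 fold change of each factor, sh-IRF1 minus NC (x axis, on log2(normalized count + 1)), by gene (y axis), with 95% confidence intervals from limma (n = 2 in each group). MEF2A stands apart at -0.85, LMO2, ZEB2, CBFB and RUNX3 lie between -0.38 and -0.28, and the intervals of RUNX1, MYB and RUNX2 include 0.

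Levels were compared between the genes only as normalized count per kilobase of merged exon. In NC the order was MEF2D (1704 ± 19.7), LMO2 (1364 ± 5.50), MYB (1090 ± 15.7), GFI1 (957 ± 14.9), RUNX3 (787 ± 18.9), CBFB (711 ± 0.600), RUNX1 (578 ± 8.87), ZEB2 (283 ± 17.6), RUNX2 (227 ± 6.70) and MEF2A (201.1 ± 6.23; SD, n = 2 throughout). In NC each gene was apart from the next in both libraries. In sh-IRF1 the order of LMO2 (1047 ± 22.1) and MYB (1083 ± 1.44) turned, with MYB higher in both libraries. The libraries of CBFB (568 ± 36.6) and RUNX1 (573 ± 17.0) overlapped there, as did those of ZEB2 (220 ± 4.60) and RUNX2 (228 ± 12.4). MEF2D was the highest of the 10 in sh-IRF1 (1805 ± 0.398) and MEF2A the lowest (112 ± 7.32). Of all genes tested, between 2.47% for MEF2D and 29.3% for MEF2A had a higher level in NC. With canonical transcript lengths, LMO2 came before MEF2D and RUNX1 moved up to the fourth place, while ZEB2, RUNX2 and MEF2A stayed the 3 lowest.

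**Figure D3:**
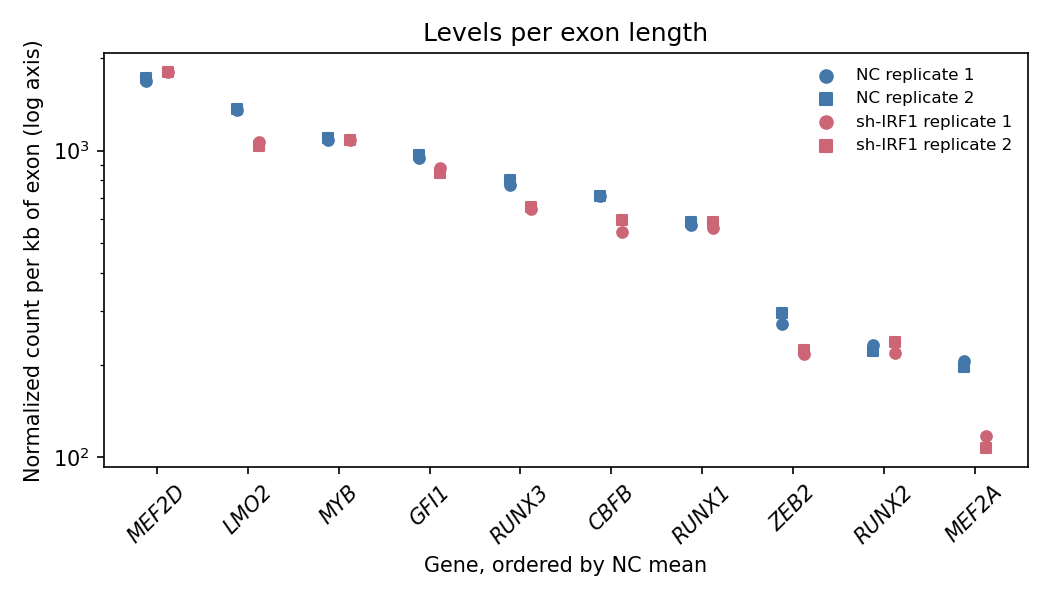
Normalized count per kilobase of merged exon (y axis, log scale) of the 10 factors, ordered by their NC mean (x axis), in each library. The 10 span from 1704 for MEF2D to 201.1 for MEF2A in NC, and MEF2A is at 112 in sh-IRF1.

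Lists of cofactors, partners and target genes from general knowledge set the factors in their pathways, with counts from the same test. The shares called among all genes, 42.2%, and among genes with a mean of at least 1000, 66.7%, with 38.6% lower, stand beside every list count that follows, and no list was tested against them. Of 17 RUNX cofactors tested, 8 were lower, 4 were higher and 5 were not called, with a median log2 fold change of -0.068. The count of lower cofactors was 5 without sh-IRF1 replicate 2. Among the Groucho corepressors, which RUNX proteins bind through their C-terminal end, TLE5, a short member that lacks the repeat domain, went from 616 ± 5.97 to 305 ± 14.3 (SD, n = 2; adjusted p = 1.98e-11, 10.8% of exonic bases shared with a gene on the other strand). TLE4 moved the other way, from 1260 ± 46.9 to 1762 ± 11.0 (adjusted p = 1.60e-09), while TLE1 and TLE3 fell by 0.43 and 0.34 on the log2 scale. Of 8 RUNX target genes tested, 4 were lower, 2 were higher and 2 were not called (median -0.22). Myeloperoxidase (MPO), a granule enzyme, fell by 1.42, and SPI1, the master regulator PU.1, rose by 0.17. The count of lower targets was 2 without either sh-IRF1 library, with total-count scaling and with DESeq2.

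Of 16 MEF2 paralogs and regulators tested, 5 were lower, 4 were higher and 7 were not called (median -0.073). Calcineurin, the calcium-dependent phosphatase that activates MEF2, was lower in its 3 listed subunit genes: PPP3CA fell by 0.28, PPP3CB by 0.47 and PPP3R1 by 0.70 on the log2 scale, the last with 34.5% of its exonic bases shared with other genes. CABIN1, which holds MEF2 in a repressed state and inhibits calcineurin, went from 2594 ± 35.8 to 3246 ± 26.7 (SD, n = 2; adjusted p = 3.21e-08). The kinases MAPK7 and MAPK14, which phosphorylate and activate MEF2 proteins, rose by 0.27 and 0.16 (adjusted p = 0.0409 and 0.0120). Of the class II histone deacetylases, HDAC4 rose by 0.19 and HDAC5, HDAC7 and HDAC9 did not pass the test. The count of higher regulators was 2 without NC replicate 1, NC replicate 2 or sh-IRF1 replicate 2. Of 6 MEF2 target genes, JUN had 282.1 and 261.9 in NC and 1053 and 1082 in sh-IRF1 and rose by 1.97, and KLF6 rose by 0.72. EGR1 had 3080 and 3174 in NC and 1355 and 1329 in sh-IRF1 and fell by 1.22, and KLF4 fell by 0.81. NR4A1 and KLF2 were not called. The median of the 6 was 0.016, and it was -0.044 without NC replicate 2 and -0.079 without sh-IRF1 replicate 1.

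Of 12 MYB paralogs and partners tested, 6 were higher, 2 were lower and 4 were not called (median 0.15). The higher genes were all changed by small amounts, among them the coactivator CREBBP (log2 fold change 0.22), KMT2A (0.21, with 19.3% of exonic bases shared), the KMT2A partner MEN1 (0.21) and TRIM28 (0.17). NLK, a kinase that marks MYB for degradation, fell by 0.63, and the count of lower partners was 1 without NC replicate 2, without either sh-IRF1 library or with total-count scaling. The paralog MYBL2, a cell cycle factor, went from 7349 ± 66.2 to 8162 ± 18.7 (adjusted p = 1.16e-04), and MYBL1 from 63.1 ± 0.668 to 86.4 ± 2.97 without passing the test (SD, n = 2; adjusted p = 0.137). Of 11 MYB target genes tested, 6 were lower, 3 were higher and 2 were not called (median -0.29), where 42.2% of all genes and 66.7% of those with a mean of at least 1000 were called. MYC had 14198 and 14561 in NC and 7380 and 7348 in sh-IRF1 and fell by 0.97, and BCL2, an inhibitor of apoptosis, fell by 0.52. Genes of primary granule proteins rose, PRTN3 by 0.54, AZU1 by 0.30 and ELANE by 0.13, while MPO, a granule enzyme that fell as given above, is in this list too.

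Of 9 tested genes of the LMO2 complex and its frequent DNA-bound partners, 4 were lower, 1 was higher and 4 were not called (median -0.19). LDB1, which joins LMO2 into the complex, had 1460 and 1481 in NC and 1544 in both sh-IRF1 libraries and was not called (adjusted p = 0.341). Of the single-stranded DNA-binding proteins that stabilize LDB1, SSBP4 was lower, from 3887 ± 93.7 to 2883 ± 26.9 (adjusted p = 5.17e-12). SSBP3 was also lower, from 1080 ± 50.3 to 709 ± 0.746 (SD, n = 2). SSBP2 was not called (log2 fold change -0.34, adjusted p = 0.097). FLI1, an ETS factor, fell by 0.68 on the log2 scale. Of the basic helix-loop-helix partners, LYL1 went from 1941 ± 29.4 to 2422 ± 45.1 (adjusted p = 5.13e-07). TCF3 moved the other way, from 8800 ± 66.1 to 7852 ± 1.65 (adjusted p = 2.43e-05), and TCF4 and TCF12 were not called. TAL1, GATA2 and ERG were below the filter, and no value was found under the symbol GATA1.

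Of 13 GFI1 and ZEB2 corepressor genes tested, 8 were lower, 1 was higher and 4 were not called (median -0.20). For GFI1B, the paralog of GFI1, no value was found under its symbol. KDM1A and RCOR1, the lysine demethylase and its scaffold through which GFI1 represses, fell by 0.28 and 0.20, and HDAC2 fell from 3398 ± 46.3 to 2294 ± 90.1 (SD, n = 2; adjusted p = 1.15e-14). CTBP2, a corepressor of ZEB proteins, fell by 0.83, with 34.2% of its exonic bases shared with other genes, while CTBP1 was not called. The histone methyltransferase EHMT2 rose by 0.26, and the count of higher genes was 2 without NC replicate 1 or with total-count scaling. Of 11 GFI1 target genes tested, 4 were lower, 2 were higher and 5 were not called (median -0.11). The growth factor gene CSF1 had 248.2 and 240.3 in NC and 69.6 and 87.1 in sh-IRF1 and fell by 1.64, EGR1 and SPI1 were given above, and HOXA9 and MEIS1 were not called. The count of higher targets was 1 without sh-IRF1 replicate 2. The lists overlap in EGR1, SPI1, MPO, ELANE, CSF1R, HDAC1, EP300, CREBBP and KMT2A, so they are not independent of each other.

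**Figure D4:**
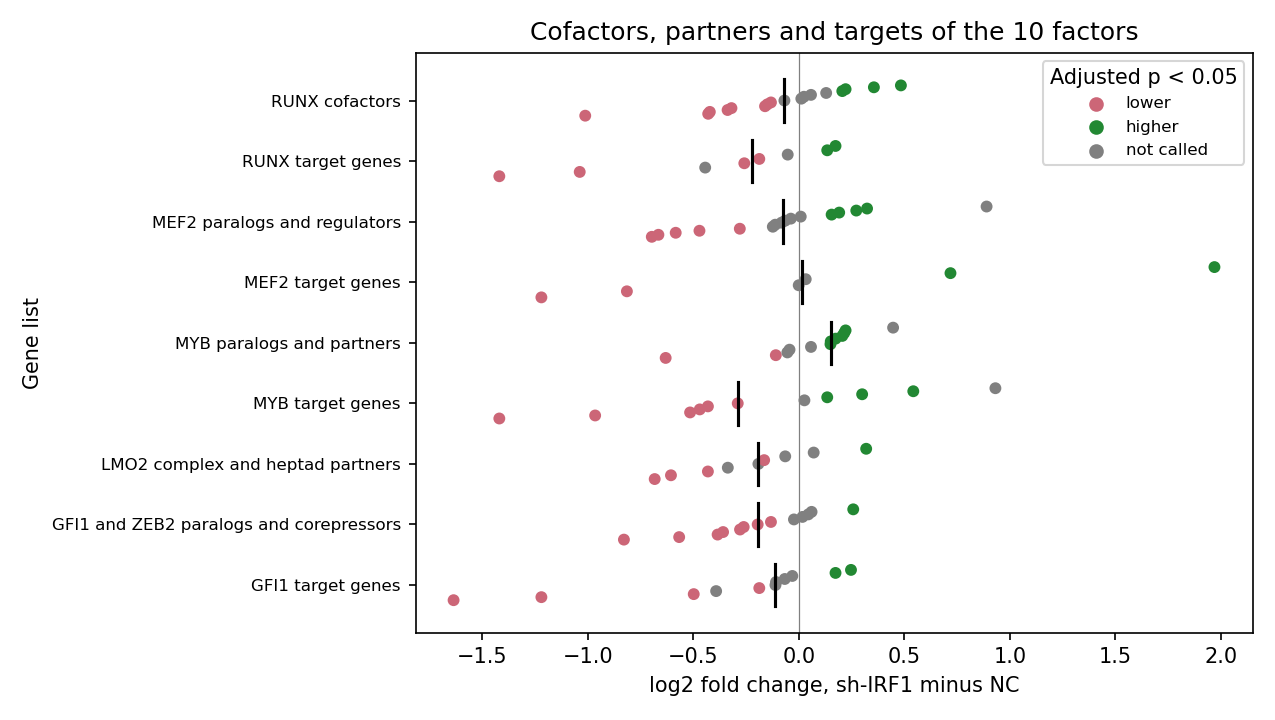
log2 fold change, sh-IRF1 minus NC (x axis), of each tested gene in 9 lists of cofactors, partners and targets (y axis), coloured by call at an adjusted p under 0.05. Black bars are list medians, which run from -0.29 for the MYB target genes to 0.15 for the MYB paralogs and partners, and each list holds genes called in both directions.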

How the data were processed

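RNA of 2 NC and 2 sh-IRF1 libraries of MV4-11 cells was sequenced. The submitters' processing notes name HISAT2 2.0.5 and hg38. The study names FPKM for quantification, but the deposited values are a signal, whole reads that the authors had scaled by a size factor for each library. All values (100%) lay within 0.01 read of a whole read. No other columns of samples were present.

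Genes that reached 10 in 2 or more libraries (14120 of 23622) were tested with limma 3.58.1 (R 4.3.3; trend and robust shrinkage) on log2(value + 1), with Benjamini-Hochberg adjustment over all of them. edgeR 4.0.16 and DESeq2 1.42.0 on the recovered reads were alternatives, beside other scalings, filters and pseudocounts, a replicate block and leaving out each library. The scripts were tested on simulated data. Symbols matched 23456 identifiers, and positions and lengths came from GENCODE on GRCh38.

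The 10 genes and all lists were chosen with earlier results of these data known. Named were the 10 genes, IRF1, paralogs, in every list the most significant gene that rose and that fell, and the 3 genes most like MEF2A. All further list genes were picked for naming with their values in view. Canonical transcript lengths were an alternative chosen after seeing the data. Protein sequences were not used here. Depth ran from 17635908 to 18695337 reads, and with 2 libraries a group the spread of a single gene is poorly known, so limma's shared spread (prior degrees of freedom 43.0) carries the tests.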

Additional observations from a re-analysis of the deposited data

How the results depend on the processing

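The 6 factors called lower were called lower under all 15 alternatives, which covered edgeR, DESeq2, 3 other scalings, 2 other filters, 2 other pseudocounts, limma without robust shrinkage, the replicate block and leaving out each library. The number of factors called higher was 0 or 1 over the leave-outs, since MEF2D lost its call without NC replicate 1 and without either sh-IRF1 library, and 1 in the others. Over the 10 factors and all alternatives, 140 of 150 fold changes kept their direction and side of the threshold. The exceptions beside MEF2D were genes that were not called: with scaling by total counts RUNX1 was at 0.031 and MYB at 0.034, without NC replicate 2 RUNX1 was at 0.0017, RUNX2 at -0.023 and MYB at 0.0045, without sh-IRF1 replicate 1 RUNX1 was at 0.016, and without sh-IRF1 replicate 2 RUNX2 was at -0.048. Over the leave-outs RUNX1 ran from -0.044 to 0.016, RUNX2 from -0.048 to 0.063 and MYB from -0.025 to 0.0045. The cause was not tested. Scaling by total counts shifts the median of all genes to 0.042. Of the ratios of paralogs, RUNX1 to RUNX2 changed sign when a library was left out, from -0.067 to 0.024. The median of the MEF2 target genes turned to -0.044 without NC replicate 2 and to -0.079 without sh-IRF1 replicate 1, in a range from -0.079 to 0.11 over the leave-outs. Of 405 list counts and medians, 388 were alike under the alternatives, and the counts that moved stand beside the lists above.

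Over all settings the number of genes called lower ran from 2405 to 3147 and that of genes called higher from 2037 to 3428, the last with scaling by total counts. Replicate numbers do not mark shared cultures in the labels, and the deviations of same-numbered libraries had a correlation of 0.011 over 9987 genes. With the replicate block, 3147 genes were called lower and 2903 higher, and of the 10 factors 6 were called lower and 1 higher. Standard errors were larger for factors with fewer reads, 0.069 for MEF2A and 0.054 for RUNX2 against 0.029 for MEF2D. The parts of depth and of the 2 libraries in each group in the precision were not tested. Smaller changes of RUNX1, RUNX2 and MYB than their intervals allow cannot be seen.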
